A study of Mus musculus with 46 samples.

Results

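The genes examined here encode 10 transcriptional regulators of hepatic lipid and carbohydrate metabolism: the nuclear receptors Ppara, Ppard, Pparg, Rxra, Nr1h2 (LXRβ) and Nr1h3 (LXRα), the coactivators Ppargc1a and Ppargc1b, and the factors Mlxipl (ChREBP) and Srebf1 (SREBP-1). They were chosen by symbol, with earlier results of these data known, and each filled 1 of the 25494 rows of the RNA-seq count table. The study compared livers of male C57BL/6 mice that entered the facility at 5 weeks of age and then ate a lipid-rich diet (LD, labelled high fat, 60% of energy as lipid) or a carbohydrate-rich diet (CD, labelled low fat, 70% of energy as carbohydrate) for 20 weeks. RNA-seq was made from 5 mice per diet and H3K27ac ChIP-seq from 3 livers per diet, while Hnf4α ChIP-seq, C/EBPα ChIP-seq and promoter capture Hi-C (PCHi-C) had 2 samples per diet each. The labels name no engineered allele and no treatment besides the feed. All assays read whole liver, and its defining transcript Alb averaged 67060 CPM on LD and 70260 on CD.

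PPARα, PPARδ and PPARγ are fatty acid-sensing receptors that bind DNA as heterodimers with RXRα, and PPARα is known as the main driver of fatty acid oxidation genes in liver, while PPARγ is best known for lipid storage in adipocytes. LXRα and LXRβ respond to oxysterols, also pair with RXRα, and are known to switch on sterol efflux genes and Srebf1. ChREBP is activated by products of glucose metabolism and SREBP-1c by insulin, and both are known to drive de novo lipogenesis, whereas the coactivators PGC-1α and PGC-1β dock on nuclear receptors and raise oxidative metabolism.

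The sequences beneath the tallest Hnf4α and C/EBPα loci of these genes are shown first, because the binding data are read against them. Each is a short window on the plus strand of mm9, centred on the tallest peak of the locus. Not every locus is shown, among them those on untranslated exons and those of Ppargc1b and Nr1h3, and Nr1h2 had no locus. In the Hnf4α windows, capitals mark a match to CAAAGNNCA on either strand, a string of the Hnf4α element. The Ppara and Rxra windows lie between genes, upstream of the start, and the other 3 in introns of the named gene.
Ppara Hnf4α chr15:85550829-85550929: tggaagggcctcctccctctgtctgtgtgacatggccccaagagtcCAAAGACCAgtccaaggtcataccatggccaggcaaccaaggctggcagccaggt
Pparg Hnf4α chr6:115415603-115415703: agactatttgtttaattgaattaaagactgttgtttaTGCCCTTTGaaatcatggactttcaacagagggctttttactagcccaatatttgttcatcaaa
Ppargc1a Hnf4α chr5:51937002-51937102: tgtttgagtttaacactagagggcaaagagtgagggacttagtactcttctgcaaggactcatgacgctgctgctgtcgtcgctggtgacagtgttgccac
Rxra Hnf4α chr2:27527260-27527360: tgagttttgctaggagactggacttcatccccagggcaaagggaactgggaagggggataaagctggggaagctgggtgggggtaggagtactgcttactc
Mlxipl Hnf4α chr5:135584223-135584323: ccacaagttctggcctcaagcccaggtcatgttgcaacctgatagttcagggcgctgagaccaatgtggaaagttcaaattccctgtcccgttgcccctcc
The string was present in 2 of the 5 windows (Ppara, and Pparg on the minus strand), against 18.1% of 45827 Hnf4α loci read in the same way. The nuclear receptor hexamer AGGTCA, searched on both strands and free to overlap the longer string, was present in 2 of the 5 (Ppara and Mlxipl), against 21.4% of all Hnf4α loci.

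In the C/EBPα windows, capitals mark a match to TTNNGCAA on either strand, a string of the C/EBP element. A pair of windows is shown for Mlxipl because its loci had the same mean height. The first Mlxipl window lies upstream between genes, the Srebf1 window in an exon, and the others in introns of the named gene.
Ppara C/EBPα chr15:85602259-85602359: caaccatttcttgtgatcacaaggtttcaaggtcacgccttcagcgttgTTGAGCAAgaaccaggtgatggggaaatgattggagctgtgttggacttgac
Ppard C/EBPα chr17:28373038-28373138: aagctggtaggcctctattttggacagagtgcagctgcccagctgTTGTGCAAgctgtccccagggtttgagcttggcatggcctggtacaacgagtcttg
Pparg C/EBPα chr6:115374634-115374734: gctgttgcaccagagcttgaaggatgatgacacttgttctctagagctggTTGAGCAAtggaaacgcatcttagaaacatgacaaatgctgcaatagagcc
Ppargc1a C/EBPα chr5:51937055-51937155: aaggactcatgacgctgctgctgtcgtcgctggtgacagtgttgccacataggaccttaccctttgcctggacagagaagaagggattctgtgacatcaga
Rxra C/EBPα chr2:27557893-27557993: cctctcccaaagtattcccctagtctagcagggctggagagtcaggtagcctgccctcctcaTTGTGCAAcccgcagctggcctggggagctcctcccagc
Mlxipl C/EBPα chr5:135576968-135577068: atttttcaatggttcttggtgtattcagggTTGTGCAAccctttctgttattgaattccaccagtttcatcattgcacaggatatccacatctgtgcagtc
Mlxipl C/EBPα chr5:135584198-135584298: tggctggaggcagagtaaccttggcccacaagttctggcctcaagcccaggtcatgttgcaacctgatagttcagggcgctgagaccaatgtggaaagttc
Srebf1 C/EBPα chr11:60018668-60018768: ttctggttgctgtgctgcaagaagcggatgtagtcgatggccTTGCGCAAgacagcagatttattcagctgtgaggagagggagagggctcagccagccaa
The string was present in 6 of the 8 windows, against 33.8% of 32984 C/EBPα loci. It was absent from the Ppargc1a window and from the Mlxipl window inside the gene. AGGTCA was present in 2 of the 8 (Ppara and the Mlxipl window inside the gene), against 12.9% of all C/EBPα loci. The Mlxipl window inside the gene overlaps its Hnf4α window, and so do the pair of Ppargc1a windows.

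Diet changed the RNA of 5 of the 10 regulators. Ppara and Pparg rose on LD, and Ppargc1a, Ppargc1b and Mlxipl fell. Ppard, Rxra, Nr1h2, Nr1h3 and Srebf1 did not pass the test. The test was edgeR's quasi-likelihood fit over 13494 genes, with p-values adjusted by Benjamini-Hochberg, and a gene passed below 0.05 when its fold change exceeded 1.2. Of all tested genes, 24.9% passed (13.8% higher and 11.1% lower on LD), and the median log2 fold change was -0.00187. Total counts ranged from 31707963 to 39012699 across libraries. All 10 regulators passed the filter on low counts. Levels are given as CPM, counts relative to the library size after TMM scaling, a unit that does not correct for gene length. For Pparg, Ppargc1a and Mlxipl the CPM of the 5 LD mice did not overlap those of the 5 CD mice, which was the case for 18.5% of all tested genes. Because whole liver was sequenced, fewer cells of a type and less RNA per cell cannot be told apart.

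**Figure D1:**
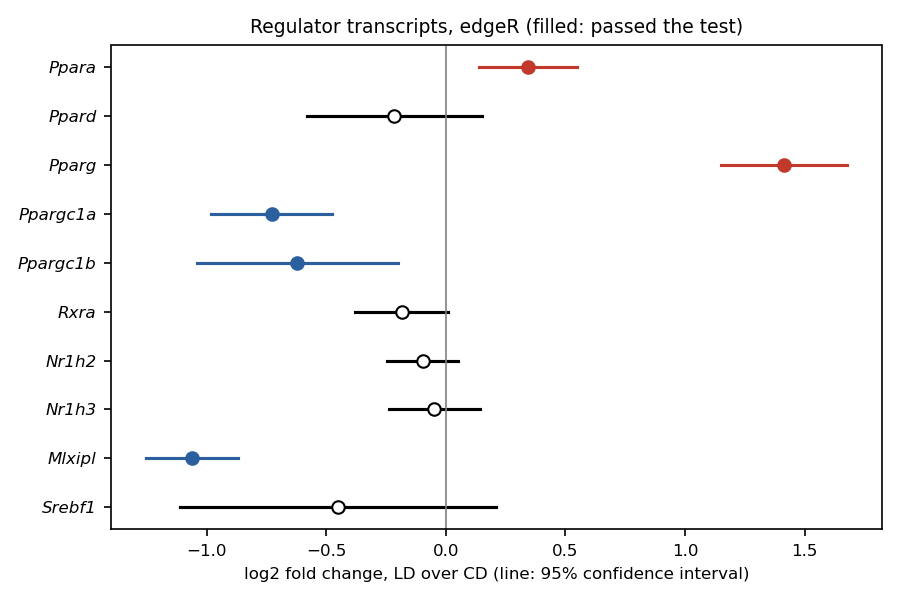
The log2 fold change (LD over CD) of each regulator transcript is plotted on the horizontal axis with its 95% confidence interval, from edgeR with 5 mice per diet. Filled points passed the test. Pparg lies farthest to the right at 1.41 and Mlxipl farthest to the left at -1.06.

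Ppara (chr15:85565994-85637281, plus strand) was the most abundant PPAR by TPM. It stood at 569, 438, 521, 564 and 430.4 CPM in the LD mice and at 365, 369, 396, 424 and 436 CPM in the CD mice. The lowest LD mouse lay just under the highest CD mouse, so that the diets overlapped. Between the diets it rose by 0.34 on the log2 scale (SE 0.10, 95% interval 0.14 to 0.55, edgeR adjusted p = 0.016), from a mean of 398 ± 31.7 on CD to 505 ± 66.9 on LD (SD, n = 5). On the length-corrected TPM scale the diets did not overlap, with 107.8 to 143.1 on LD and 82.15 to 103.8 on CD.

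Pparg (chr6:115310969-115440419, plus strand) had the largest change of the 10. It was read at 30.8, 39.8, 50.6, 52.0 and 42.9 CPM on LD and at 16.1, 15.6, 17.3, 16.96 and 15.2 CPM on CD. Every LD mouse lay above every CD mouse, and the LD mice spread far more (SD 8.64) than the CD mice (SD 0.899). On the log2 scale the rise was 1.41 (SE 0.12, 95% interval 1.15 to 1.68, edgeR adjusted p = 1.25e-05), a fold of 2.66. Adipocytes are a cell type rich in this receptor. Of 8 adipocyte genes, 5 were below the filter on low counts. Among these the defining transcripts Plin1 and Lep had 0 counts in all 10 mice, and Adipoq had 2 counts in all on LD and 7 on CD. Of the 3 that were tested, Cidec (5.44) and Lipe (0.44) rose on LD (66.7%, against 13.8% of all tested genes). Summed over the 3 tested genes, the LD mice lay between 827.7 and 1595 CPM and the CD mice between 821.5 and 2033 CPM. Of each sum, 82.8% to 99.2% was Pck1, the gluconeogenic carboxykinase, which hepatocytes also express. Without Pck1 the sums, which then hold Cidec and Lipe alone, were 67.27 to 154.3 CPM for LD and 14.75 to 21.5 CPM for CD. They were apart in all mice. Cidec is also among the PPARγ targets read below, so that this is not a separate reading. The part of adipocyte RNA in the Pparg change was not tested. Macrophages also express it, and the summed CPM of 11 macrophage genes ran from 507.6 to 1361 on LD and from 409.7 to 822.6 on CD. The part of macrophage RNA in the Pparg change was not tested.

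Ppard (chr17:28369699-28438414, plus strand), the widely expressed PPAR, was scarce in liver. Its level was 1.73, 1.53, 1.65, 1.82 and 1.84 CPM on LD and 1.56, 1.88, 1.73, 2.64 and 2.15 CPM on CD. The diets overlapped, and the log2 fold change of -0.22 had an interval of -0.58 to 0.15 (edgeR adjusted p = 0.377). The value rests on 304 counts in all on LD and 340 on CD. The ratio of Pparg to Ppara TPM was 17.5% to 32.3% on LD (median 29.8%) and 11.3% to 14.3% on CD (median 13.7%).

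The coactivators fell together on LD, although they are both rare transcripts. Ppargc1a (PGC-1α, chr5:51845488-51958964, minus strand) stood at 7.20, 6.27, 6.92, 6.04 and 6.71 CPM on LD and at 10.4, 11.7, 11.4, 13.2 and 8.24 CPM on CD. No LD mouse reached the lowest CD mouse, and the spread was wider on CD (SD 1.84) than on LD (SD 0.474). The log2 fold change was -0.73 (SE 0.12, 95% interval -0.98 to -0.47, edgeR adjusted p = 0.000701).

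Ppargc1b (PGC-1β, chr18:61457790-61560085, minus strand) stood at 3.57, 2.11, 2.58, 3.40 and 3.16 CPM on LD and at 3.19, 3.79, 4.67, 6.42 and 4.75 CPM on CD. The lowest CD mouse lay inside the LD range. Its log2 fold change was -0.62 (SE 0.20, 95% interval -1.04 to -0.20, edgeR adjusted p = 0.0295). This call was the least stable of the 5. It was lost with limma on TPM values, and in edgeR without any one of LD replicates 2 and 3 or CD replicates 3, 4 and 5 (adjusted p 0.0539 to 0.0831). Without CD replicate 4, the mouse with the highest level, the log2 fold change was -0.47.

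Rxra (chr2:27532721-27618839, plus strand), the common heterodimer partner, stood at 306, 286, 309, 326 and 262 CPM on LD and at 279, 319, 361, 382 and 349.7 CPM on CD. The diets overlapped, and the log2 fold change was -0.18 (95% interval -0.38 to 0.01, edgeR adjusted p = 0.15). A fall of more than 0.38 lies outside this interval.

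Neither LXR passed the test, and both intervals were narrow. Nr1h3 (LXRα, chr2:91024218-91035273, minus strand) stood at 131, 140.1, 123, 129 and 101.3 CPM on LD and at 147, 121, 133, 122 and 122 CPM on CD, with a log2 fold change of -0.05 (95% interval -0.24 to 0.14, edgeR adjusted p = 0.722). Nr1h2 (LXRβ, chr7:51804986-51809335, minus strand) stood at 20.7, 20.2, 22.8, 22.3 and 21.6 CPM on LD and at 21.2, 21.6, 23.6, 23.7 and 24.9 CPM on CD, with a log2 fold change of -0.10 (95% interval -0.25 to 0.05, edgeR adjusted p = 0.322). Both genes overlapped between the diets. In TPM, Nr1h2 stood at 14.5% to 21.4% of Nr1h3 on LD and at 14.5% to 20.6% on CD.

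Mlxipl (ChREBP, chr5:135582761-135614252, plus strand) had the smallest p-value of the 10 genes. It was read at 43.8, 32.1, 42.0, 40.4 and 41.5 CPM on LD and at 73.8, 79.6, 87.3, 94.3 and 81.9 CPM on CD. The highest LD mouse lay well under the lowest CD mouse. The log2 fold change was -1.06 (SE 0.09, 95% interval -1.25 to -0.87, edgeR adjusted p = 8.57e-06), so that the LD level was 0.479 of the CD level. The gene counts do not separate the transcripts of its promoters, ChREBPα and ChREBPβ.

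Srebf1 (chr11:60012586-60034129, minus strand) had the widest spread among the CD mice. It stood at 333, 393, 327, 423 and 301 CPM on LD and at 429.9, 456, 924, 279 and 338 CPM on CD. A single CD mouse, replicate 3, was higher than all others, and the remaining CD mice spanned the LD range. The log2 fold change of -0.45 had an interval of -1.11 to 0.21 (edgeR adjusted p = 0.292), and without that mouse it was -0.08 (adjusted p = 0.726). The counts do not separate the SREBP-1a and SREBP-1c transcripts.

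**Figure D2:**
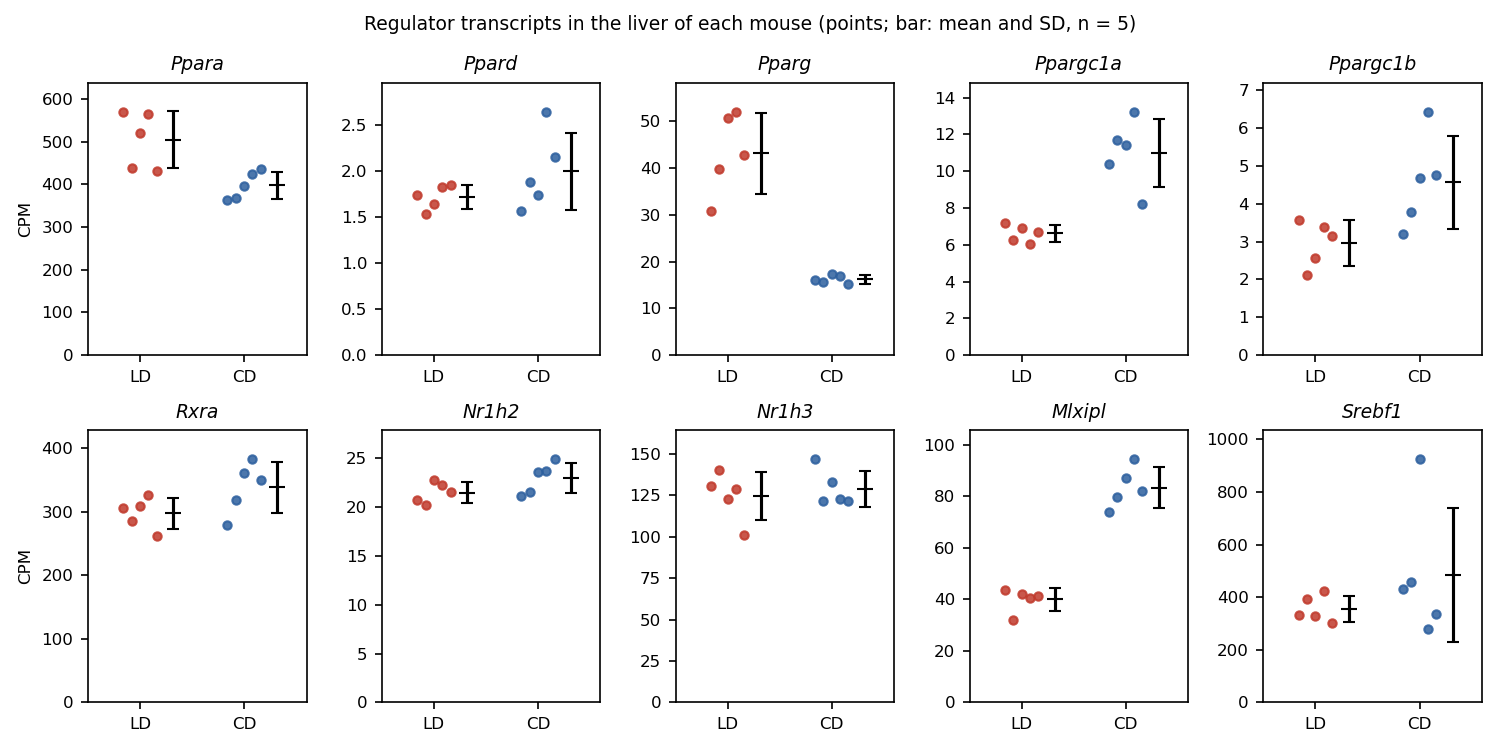
Each panel plots the CPM of 1 regulator in the liver of every mouse (red, LD; blue, CD), with the mean and SD of 5 mice beside the points on an axis that starts at 0. The diets are apart for Pparg, Ppargc1a and Mlxipl, and the CD mouse at 924 CPM stands alone in the Srebf1 panel.

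Per length, the regulators fell into abundant and scarce groups. On LD, Srebf1 (155 ± 16.04 TPM), Ppara (126.7), Nr1h3 (115.7) and Rxra (103) headed the order, and each overlapped the next. Pparg followed at 35.2 ± 6.74, clear of its neighbours on both sides. Mlxipl (20.8) and Nr1h2 (20.15) overlapped, and Ppargc1a (1.91), Ppargc1b (1.54) and Ppard (1.01) formed the low end with overlapping ranges. On CD the top 4 were Srebf1 (201.8 ± 108), Nr1h3 (113.5), Rxra (111.4) and Ppara (94.96), again overlapping. Below them Mlxipl (41.1), Nr1h2 (20.4) and Pparg (12.6) each lay clear of the next, and the coactivators and Ppard were lowest as on LD. Mlxipl and Pparg therefore stood in the opposite order on the 2 diets.

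The targets of each regulator were read in the same edgeR fit, from lists written with earlier results of these data known. Of 34 genes known as PPARα targets, 19 rose on LD (55.9%, against 13.8% of all tested genes) and 0 fell (against 11.1%), with a median log2 fold change of 0.48. The summed level of the list was 23300 to 29650 CPM on LD and 17240 to 21420 on CD, without overlap. The largest changes were in Acot2, a mitochondrial acyl-CoA thioesterase (log2 fold change 1.80, SE 0.31, edgeR adjusted p = 0.00204), Vnn1, a pantetheinase (1.65, SE 0.23, adjusted p = 0.000774), and Aldh3a2, a fatty aldehyde dehydrogenase (1.40, SE 0.15, adjusted p = 6.3e-05). The carnitine palmitoyltransferase Cpt1a (0.59) was also higher in every LD mouse than in every CD mouse.

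Of 15 genes known as PPARγ targets, 12 were tested, 8 rose (66.7%, against 13.8% of all tested genes) and 1 fell (8.33%, against 11.1%), with a median log2 fold change of 1.65. Without LD replicate 1 or CD replicate 3, 2 fell. The lipid droplet proteins Cidea (5.58, SE 0.27, edgeR adjusted p = 2.58e-06) and Cidec (5.44, SE 0.41, adjusted p = 4.24e-05) and the protease Cfd (5.44, SE 0.79, adjusted p = 0.00147) had the largest rises. Cidea stood at 22.2 to 41 CPM on LD and at 0.320 to 0.922 CPM on CD. The fatty acid transporter Cd36 rose from 111 to 414 CPM. The single fall was Fabp5, a fatty acid-binding protein, from 181.8 ± 94.96 to 10.2 ± 1.999 CPM (-4.16, SE 0.46, adjusted p = 0.000367). Of the 3 genes of this list that were not tested, Aqp7, an aquaglyceroporin, had 7 to 39 counts in each LD mouse and at most 1 in each CD mouse, and Adipoq and Plin1 are given above.

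Of 15 LXR targets, 3 were higher (20%, against 13.8% of all tested genes) and 4 lower (26.7%, against 11.1%), with a median of 0.03. Without LD replicate 2, 1 was higher. The falls were in the stearoyl-CoA desaturase Scd1 (-0.96, SE 0.17, edgeR adjusted p = 0.00152), the sterol transporter Abca1 (-0.52, SE 0.10, adjusted p = 0.00202) and the sterol transporters Abcg8 (-0.38) and Abcg5 (-0.31). The rises were in Lpl (0.91), which hydrolyses lipoprotein triglyceride, Arl4c (0.47) and Smpdl3a (0.30).

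Among 21 ChREBP targets, 9 fell (42.9%) and 3 rose (14.3%), and among 20 SREBP-1 targets, 9 fell (45%) and 2 rose (10%), with medians of -0.16 and -0.21. Of all tested genes, 11.1% fell and 13.8% rose, so that the shares that rose were close to or under that of all genes. Without LD replicate 2, 5 ChREBP targets rose, and without LD replicate 4 or CD replicate 2, 1 SREBP-1 target rose. These lists share lipogenic genes, among them Fasn, Acaca, Acly, Elovl6, Scd1 and Pnpla3, so that they are not separate readings. Other lists share genes too, with Scd1 also an LXR target, Lpl both a PPARγ and an LXR target, and Fgf21 both a PPARα and a ChREBP target. Pnpla3, a lipid droplet protein, had the largest fall of the ChREBP list (-2.30, SE 0.25, edgeR adjusted p = 0.000107), followed by G6pc, the glucose-6-phosphatase subunit (-1.20, SE 0.22, adjusted p = 0.00244), and Acaca, the acetyl-CoA carboxylase (-0.98, SE 0.11, adjusted p = 6.36e-05). Pnpla5 had the largest fall of the SREBP-1 list (-2.97, SE 0.44, adjusted p = 0.000773). Members that rose included Fgf21 (1.36), Gpd1 (0.46) and Txnip (0.34) of the first list and the desaturase Fads2 (0.64) of the second. In the CD mouse with the high Srebf1 value, 10 of the 20 SREBP-1 targets were at their lowest among the CD mice. They included Acaca (388.5 CPM) and Acss2 (308.1 CPM). At their highest were 3 (Fasn, 4240 CPM, Mid1ip1, 103.4 CPM, and Thrsp). Of the 21 ChREBP targets, 8 were at their lowest in this mouse and 5 at their highest. The shares of all tested genes at either end in this mouse were not computed, so that these counts have no background.

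Of 33 partners, coregulators and related receptors, 2 rose (6.06%, against 13.8% of all tested genes) and 11 fell (33.3%, against 11.1%), with a median of -0.13. The fall was largest for Scap, the escort protein of the SREBPs, from 152 ± 20.01 to 87.1 ± 7.39 CPM (-0.80, SE 0.09, edgeR adjusted p = 7.36e-05), and the acetyltransferase Crebbp also fell (-0.53). The rises were in Nr1i3, the receptor CAR (0.67), and Rxrg (0.46). Srebf2, Mlx, Insig1 and Insig2 did not pass. With limma on TPM values 4 partners passed as lower.

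Markers of other liver cells are given as measured, beside the 13.8% of all tested genes that rose and the 11.1% that fell. Of 10 stellate cell genes 4 rose (40%), led by the collagens Col1a1 (1.596), Col3a1 (1.44) and Col1a2 (1.098), with sums of 808.8 to 1164 CPM on LD and 704.1 to 840.9 on CD. Of 11 macrophage genes 2 rose (18.2%; Cd68, 0.96, and Itgam, 0.90), and of 6 cholangiocyte genes 1 rose (16.7%; Spp1, 1.98), shares close to that of all genes. Of 8 hepatocyte genes 3 fell (37.5%; Cps1, -1.33; Tat, -0.88; Serpina1c, -0.86), while the transcript of albumin, Alb, did not pass (-0.07, adjusted p = 0.614). The hepatocyte sums were 94040 to 108200 CPM on LD and 105800 to 117300 on CD. Without Alb they were 30610 to 35640 CPM on LD and 39060 to 43090 on CD, without overlap. The part of these genes in the regulator results was not tested.

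H3K27ac, the acetyl mark of active promoters and enhancers, was read as the share of each gene body with 20 kb on either side that lay under the authors' peaks. The diets did not overlap for 4 of the 10 regulators. Pparg and Nr1h2 had more coverage on LD, and Ppargc1a and Mlxipl less. Over all 19138 genes with coverage, 20.9% were higher on LD without overlap and 5.3% lower. The LD libraries also covered more of the genome (149.8 to 160.4 Mb, against 139.7 to 145.4 Mb on CD), and the median gene gained 0.765 percentage points. With 3 livers per diet the exact permutation test cannot go below p = 0.1.

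The Pparg window was covered to 25.02%, 30.4% and 32.7% on LD and to 21.2%, 19.8% and 20.2% on CD. The LD livers were all higher, by 8.97 percentage points in the mean (exact p = 0.1). The window of Mlxipl was covered to 36.6%, 35.5% and 36.9% on LD and to 47.0%, 55.7% and 44.2% on CD, a difference of -12.6 points (exact p = 0.1). In Ppargc1a the shares were 13.7%, 12.8% and 13.7% on LD and 15.2%, 16.4% and 18.4% on CD (-3.30 points, exact p = 0.1). For these 3 genes coverage and RNA differed in the same direction.

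The Nr1h2 window was covered to 9.47%, 10.4% and 10.7% on LD and to 8.12%, 7.21% and 6.31% on CD (2.96 points, exact p = 0.1). The interval present in 3 LD and 0 CD livers here, chr7:51827800-51829599, lies by the neighbouring gene Napsa, an aspartic protease. Napsa RNA rose from 0.666 to 1.54 CPM (log2 fold change 1.21, SE 0.26, edgeR adjusted p = 0.0036), while Nr1h2 itself did not pass. The separation of Nr1h2 was not seen with 5 kb or 50 kb on either side, nor with 20 kb on either side of the start site. That last window also ended the separation of Ppargc1a, while Pparg and Mlxipl were apart in every window tried. Rxra, which overlapped in the main window, was lower on LD without overlap with 5 kb on either side and with 20 kb around the start site.

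Intervals present in 0 LD and 3 CD livers lay at chr5:135614600-135616799, just past the end of Mlxipl, and at chr17:28376800-28379399 in an intron of Ppard. Of all 62774 intervals, 380 were of this kind. The opposite kind, 3 LD and 0 CD livers, as by Napsa, numbered 1571. The most heavily marked regulators were Rxra (78.2% on LD, 80.8% on CD), Ppara (79.4% and 76.1%) and Srebf1 (60.4% and 63.0%), all with overlapping diets. Nr1h3 (38.3% and 35.8%), Ppard (31.0% and 32.3%) and Ppargc1b (22.1% and 23.8%) also overlapped. A peak covered the start site in all 6 livers for 9 of the genes and in 0 livers for Ppargc1a. Scaled to the total length covered in each library, 8 of the 10 genes did not overlap, with Ppard, Ppargc1b, Rxra and Srebf1 added as lower on LD. Of all 19138 genes, 13.2% were then higher on LD without overlap and 14.8% lower, against 2 and 6 of the 10 regulators.

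**Figure D3:**
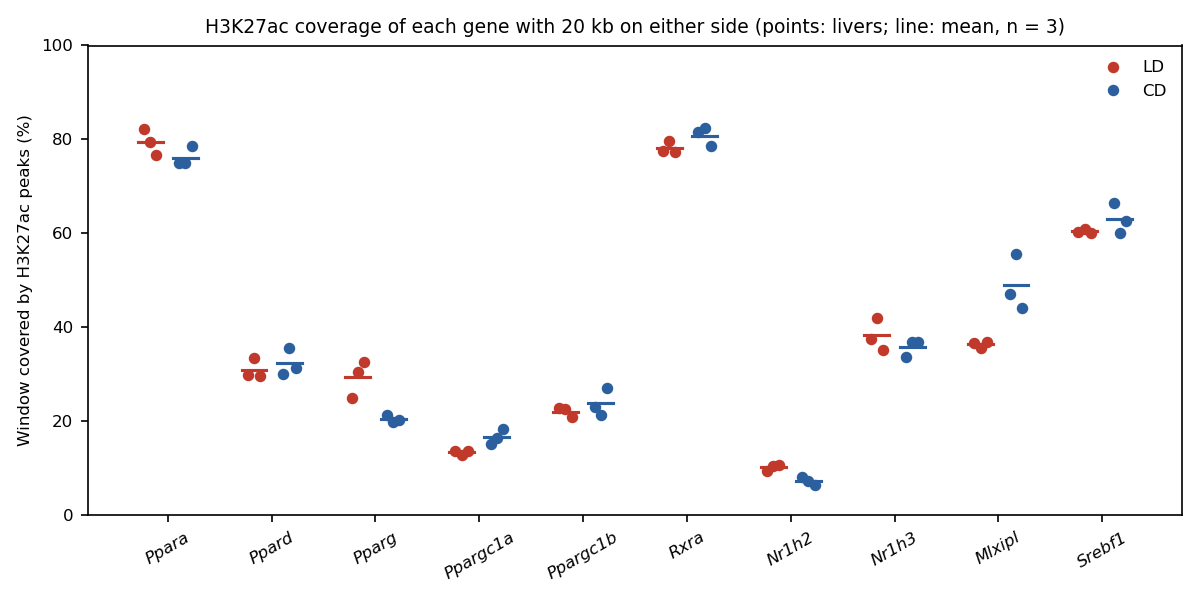
The share of each gene body with 20 kb on either side that lies under H3K27ac peaks is plotted in percent for 3 LD (red) and 3 CD (blue) livers, with a line at the mean. Pparg and Nr1h2 are higher on LD, Ppargc1a and Mlxipl lower, and Ppara and Rxra are the most covered.

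Hnf4α, a nuclear receptor of hepatocyte identity, bound 84 loci within 20 kb of 9 of the 10 genes, and none near Nr1h2. Ppara had the most (16), followed by Pparg and Ppargc1b (12 each), Ppard and Rxra (9 each), Ppargc1a, Mlxipl and Srebf1 (7 each) and Nr1h3 (5). Of the 84, 61 were in introns, 7 in exons and 16 between genes, and 80 lay in H3K27ac intervals present in at least 2 of the 6 livers (95.2%, against 78.8% of all Hnf4α loci). A C/EBPα locus overlapped 32 of them (38.1%, against 39.3%).

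A peak height is the number of tags in a peak after scaling to a common library size, and a height of 0 means that no peak was listed in that liver. Among the 47 of these present in all 4 livers, 0 passed limma's test after adjustment, as did 0% of all 23344 such loci. At an unadjusted p under 0.05 stood 1 of the 47 and 610 of the 23344. Among the 84 loci, heights did not overlap for 13 in the direction of LD and 5 in the direction of CD, which are 15.5% and 5.95%, against 22.2% and 6.49% of all loci. The CD libraries differed from each other in median height (21.5 and 42.8), with the LD libraries (35.8 and 33.5) between them. With 2 samples per diet an exact test cannot go below p = 0.33.

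The tallest Hnf4α locus of the set lay 1.5 kb inside Mlxipl, with heights of 194.8 and 161.8 on LD and 136.5 and 255.5 on CD. Near Ppara, the tallest was 15.1 kb upstream, at 194.5 and 154.5 on LD and 110.8 and 237.5 on CD. At both loci the CD livers lay on either side of the LD livers. In an intron of Ppara, a locus at 35930 bases had 0 in both LD livers and 77.5 and 193.8 on CD, and the next, at 36527 bases, had 115.8 and 96.5 on LD and 80.5 and 200.2 on CD.

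Of the 12 Hnf4α loci near Pparg, 4 were higher on LD without overlap and 0 lower, against 22.2% and 6.49% of all loci. In its introns, a locus 63711 bases past the start had heights of 49.5 and 53.0 on LD and 0 in both CD livers. Another at 109470 bases had 47.5 and 41.5 on LD and 0 in both. A locus 133084 bases past the start, beyond the end of the gene, had 47.0 and 90.8 on LD and 15 and 33.5 on CD (log2 fold change 1.54, 95% interval 0.19 to 2.89, limma unadjusted p = 0.025, adjusted p = 0.9998). The tallest Pparg locus, at 104684 bases, whose sequence is given above, had 83.2 and 81.0 on LD and 75.8 and 186 on CD. Divided by the median height of each library, 5.5% of all 23344 loci passed limma, and of the 47 loci near the regulators 3 passed (6.38%), a share near that of all loci. These were Pparg loci: that at 133084 bases as higher on LD (adjusted p = 0.0159) and those at 60823 bases (-0.94, adjusted p = 0.0171) and 104684 bases (-0.72, adjusted p = 0.0199) as lower.

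C/EBPα, the basic leucine zipper factor of hepatocytes and adipocytes, bound 58 loci near the same 9 genes. Ppara had 11, Pparg, Ppargc1a and Ppargc1b 8 each, Ppard and Rxra 6 each, Srebf1 5, Mlxipl 4 and Nr1h3 2. Heights did not overlap for 20 loci in the direction of CD (34.5%, against 29.6% of all 33006 loci) and for 8 in the direction of LD (13.8%, against 23.3%). Among the 30 of these present in all 4 livers, 2 passed limma, and both were lower on LD, against 3% of all 13813 such loci (297 lower and 117 higher). The median log2 fold change was -0.55 over the 30 and -0.41 over all 13813.

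The first lay 1.5 kb inside Mlxipl, with heights of 55.5 and 51.0 on LD and 149 and 126 on CD (-1.37, SE 0.37, limma adjusted p = 0.0192). It overlaps the tallest Hnf4α locus and is the Mlxipl window without the C/EBP string. The second lay in an exon of Srebf1, 15.4 kb past the start, with 27 and 26 on LD and 74.0 and 71.5 on CD (-1.46, SE 0.41, limma adjusted p = 0.0272). Another annotated Srebf1 transcript starts within 1 kb of it. Without any one of the 4 libraries neither locus passed. Over all C/EBPα loci tested, 1 of 15062 then passed without LD replicate 1, and 0 without each of the other libraries. The log2 fold changes were then -1.24 to -1.49 at Mlxipl and -1.43 to -1.48 at Srebf1.

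At Mlxipl, the intergenic locus 5.7 kb upstream had 78.0 and 76.5 on LD and 136.5 and 90.5 on CD, and a small locus 2.3 kb upstream had 30 and 23.5 on LD and 0 in both CD livers. At Srebf1, 4 of the 5 loci were lower on LD without overlap, as were 29.6% of all C/EBPα loci. Nr1h3 had a locus by its start at 31.0 and 43.5 on LD and 60 and 67.5 on CD, and another 7.8 kb upstream, in an exon of Acp2, at 23.5 and 29.5 on LD and 84.5 and 49.0 on CD (limma adjusted p = 0.0564).

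Of the 8 C/EBPα loci near Pparg, 2 were higher on LD without overlap, a share close to the 23.3% of all loci, and 0 were lower, against 29.6%. The tallest, at 63715 bases and over the Hnf4α locus present on LD alone, had 91.0 and 98.5 on LD and 94.5 and 46.5 on CD. After division by library medians it passed as higher on LD (0.82, limma adjusted p = 0.000735), while the Mlxipl and Srebf1 loci passed as lower. In that scaling 6 of the 30 loci passed (20%), a share near the 19.1% of all 13813 loci. In an intron of Ppara, a locus at 36004 bases had 54.5 and 50.5 on LD and 0 in both CD livers, and the neighbouring locus at 36315 bases had 0 in both LD livers and 102.5 and 77.0 on CD. These loci lie side by side. A C/EBPα library, CD replicate 1, had a median height of 37.5, against 25 in the other CD library and 24.0 and 25.5 on LD.

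**Figure D4:**
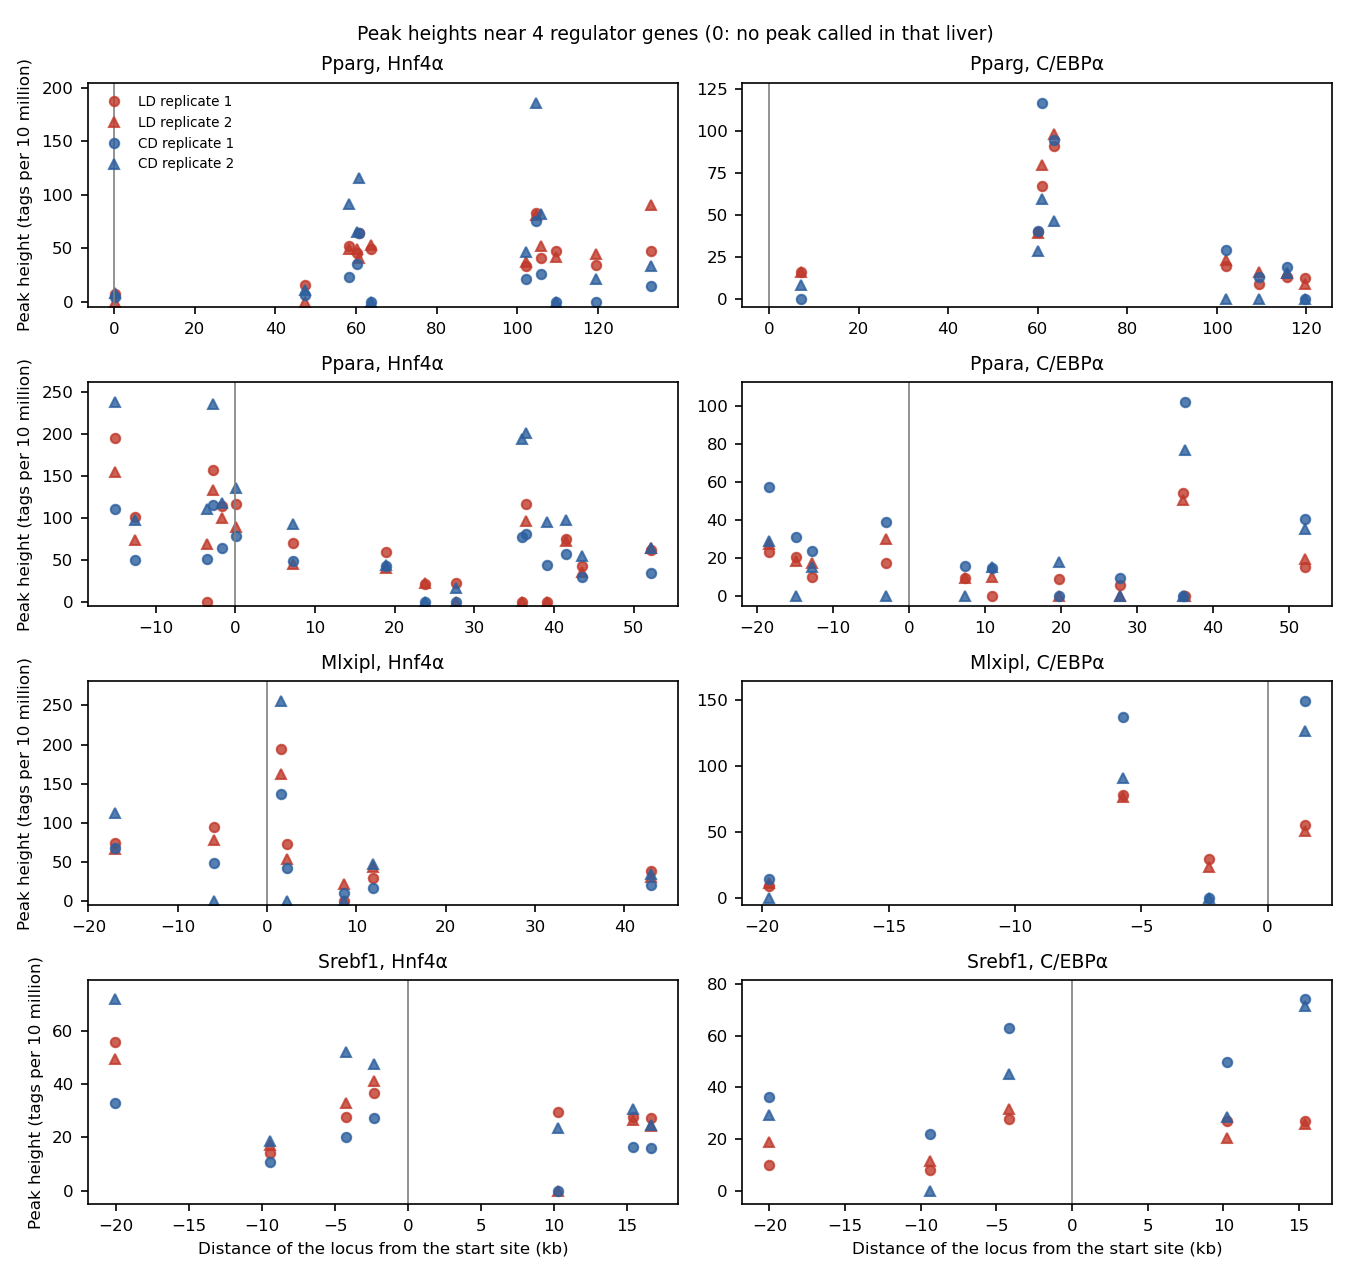
Peak heights (tags, scaled to a common library size) are plotted against the distance of each locus from the start site in kb, for Hnf4α (left) and C/EBPα (right) near 4 regulators, with 1 point per liver (circles and triangles, replicates 1 and 2). In the C/EBPα panels the blue CD points stand above the red LD points at 4 of the 5 Srebf1 loci and 2 of the 4 Mlxipl loci, whereas the Hnf4α panels show the CD livers on both sides of the LD livers at many loci.

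PCHi-C counts contacts between promoter fragments, the baits, and other restriction fragments. The 2 replicates of a diet were pooled by the authors into 1 CHiCAGO score, and fragments within 1 Mb with a score of at least 5 are listed, so that differences between the diets have no replicate check. The baits of the regulators had 64 interactions on LD and 74 on CD, of which 51 were the same fragments (79.7% of LD and 68.9% of CD). Over all baits, 151203 and 149798 interactions shared 105310 (69.6% and 70.3%). Of the 87 distinct other ends, 58 held H3K27ac in at least 2 livers, 28 an Hnf4α locus and 22 a C/EBPα locus. Over all 104998 other ends these shares were 33.7%, 14.3% and 11.5%.

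Rxra supplied much of this, with 29 interactions on LD, 27 on CD and 25 on both. They ran from -136.5 to -38.3 kb upstream and from 65.7 to 89.7 kb downstream, and H3K27ac was present in all 6 livers at 30 of its 31 other ends. The strongest lay upstream, at -122.8 kb (score 19.14 on LD, 25.68 on CD), -119.5 kb (12.18 and 25.95) and -124.7 kb (16.52 and 18.89). The CD score was higher at 19 of the 25 shared fragments, many of them neighbours. Over all regulator baits it was higher at 28 of the 51 shared fragments. The LD score was higher at 7 of 8 for Ppargc1b and at 4 of 5 for Ppargc1a. The share over all baits of the capture was not computed. By number of interactions the Rxra bait ranked at percentile 92.2 of all baits on LD and 91.2 on CD.

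Mlxipl had 7 interactions on LD and 8 on CD, 6 of them shared, and all 9 other ends were baits of other promoters. The highest scores were with Stx1a, a syntaxin (11.14 on LD, 13.44 on CD), with Cldn3, a claudin (8.01 and 10.93), and with a fragment in Baz1b (10.81 and 7.92). Fragments with the starts of Tbl2 (9.57 and 6.38) and Abhd11 (9.2 and 8.09) came next. Pparg had 4 and 5 interactions, 3 shared, and its highest scores were with a fragment 170.3 kb downstream of the bait (8.55 and 11.71). The adjacent fragment at 163.5 kb (8.22 and 7.54) held H3K27ac in 3 LD livers and in 1 CD liver.

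The Ppara bait had 0 listed interactions on LD and 5 on CD, with scores of 5.03 to 9.02 at 28.8 to 133 kb downstream. Scores under 5 are not listed, so that the LD scores of these fragments are not known. Ppargc1a had 8 and 11, all beyond 493 kb, with the highest at -497.6 kb (11.6 on LD, 7.85 on CD). Ppargc1b had 10 on each diet with 8 shared, Ppard 3 and 4 with 3 shared, and Nr1h2 3 and 4 with 1 shared, which reached Napsa (6.5 and 5.2). Nr1h3 and Srebf1 were not among the listed baits, and Nr1h3 was reached once from another bait, Mybpc3, on CD (5.91).

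**Figure D5:**
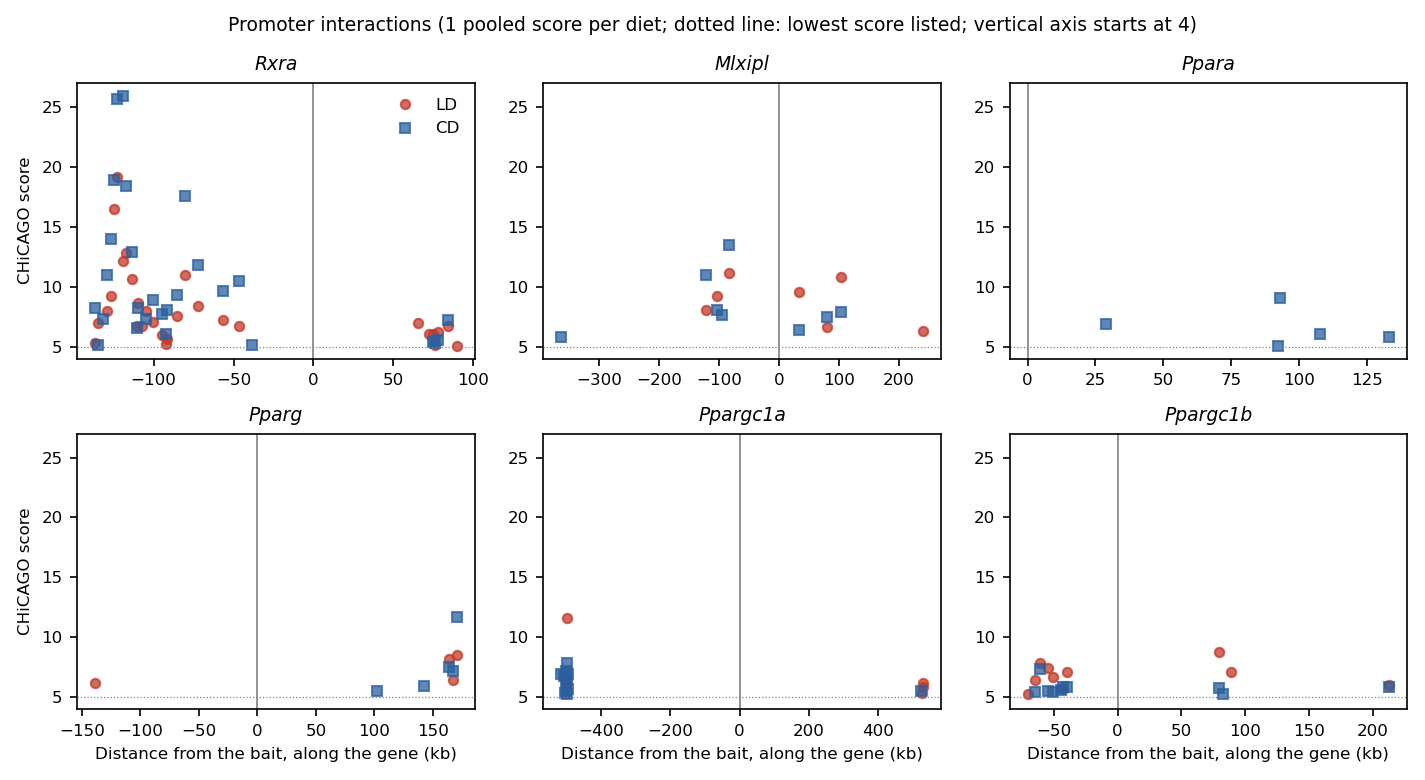
CHiCAGO scores of listed interactions (1 pooled score per diet; red circles, LD; blue squares, CD) are plotted against distance from the bait along the gene in kb for 6 regulators, on an axis that starts at 4. Rxra scores peak near 120 kb upstream on both diets, and the Ppara panel holds CD points alone.

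The genes most like each regulator from mouse to mouse are given as a description. Likeness was the Pearson correlation of log2 CPM over the 10 mice after the diet means were removed, and the values shown are the highest of 12073 genes searched, with no chance level computed, so that they do not show that the genes vary together. The closest genes were Gstt3 (0.948) and Cdip1 (0.931) for Ppara, Prkag1 (0.946) and Anapc5 (0.941) for Pparg, and Ercc5 (0.964) and Dgkd (0.936) for Ppard. For the coactivators they were Utrn (0.962) and Mtmr1 (0.924) with Ppargc1a, and Brpf3 (0.977) and Dvl3 (0.968) with Ppargc1b. Rxra was closest to Nfix (0.973) and Aifm2 (0.963), Nr1h2 to Brd2 (0.963) and Rnpepl1 (0.96), and Nr1h3 to Gpr108 (0.96) and Mrpl45 (0.951). Mlxipl was closest to Sik3 (0.956) and Bcr (0.953), and Srebf1 to Sdc1 (0.971) and Stk38 (0.943).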

How the data were processed

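RNA-seq read pairs were aligned to mm9 by the authors with STAR 2.5 and counted by strand on RefSeq genes with featureCounts 1.5.0-p1, and the deposited counts are not normalized. The authors also deposited TPM values, with fold changes and p-values of their own comparison that were not used, and 1 CD column of the TPM table was mapped to its diet only. For H3K27ac, the deposited lists hold peak intervals that the authors called with SICER per sample. The authors ran HOMER on each Hnf4α or C/EBPα sample, and the deposited signal is the peak height, tags scaled to a common library size. For PCHi-C, the deposited CHiCAGO score comes from replicates that the authors pooled, and domain lists were not used. Versions are from the submitters' processing notes.

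Counts were fitted in R 4.3.3 with edgeR 4.0.16 (TMM, filterByExpr, robust), with DESeq2 1.42.0 and limma 3.58.1 as alternatives. H3K27ac coverage was computed in Python 3.11.15 as the percent of each window under peaks. Overlapping Hnf4α or C/EBPα peaks were merged, loci in at least 2 samples were kept, and log2 heights of loci in all 4 samples were fitted with limma (trend). The edgeR fit of counts and the limma fit of peak heights were tested on simulated data. Named were all 10 regulators, the up to 3 genes per list and direction with the largest change and at least 1 CPM, the 2 closest genes by residual correlation, the tallest locus per factor and the top interactions. Some items under this rule are not reported here. Other genes and loci were named after their values were seen. The regulators and lists were chosen with earlier results of these data known. Of 2000 capture fragments sampled, 100% began at a HindIII site of the reference, NCBIM37, which is mm9.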

Additional observations from a re-analysis of the deposited data

Results flagged for a closer look

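Srebf1 in CD replicate 3 stood at 924.0 CPM, the highest of the 5 CD mice and far from the next, at 456 CPM. The gap was 0.725 of the range of the group, above Dixon's critical value of 0.71 for 5 samples. In all, 20 groups of 5 mice were tested in this way, and chance marks about 1 in 20.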

How the results depend on the processing

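Of 190 alternative values for single regulators, 180 kept their direction and side of the threshold, 3 changed sign without passing on either side, all for Nr1h3 (-0.05 in edgeR; limma on log2(TPM + 1), 0.02467; with 0.1 added, 0.02485; without LD replicate 5, 0.01803; single mice omitted, -0.0934 to 0.01803), and 7 kept the direction but not the threshold, all for Ppargc1b (limma on log2(TPM + 1), -0.34, adjusted p = 0.1001; with 0.1 added, -0.50, 0.1005; and 5 omissions of a mouse). With limma on TPM, 4 partners passed as lower with either pseudocount, against 11. On omission of single mice the PPARγ targets called lower numbered 1 to 2, the LXR targets called higher 1 to 4, the ChREBP targets called higher 2 to 5 and the SREBP-1 targets called higher 1 to 3. Omitting LD replicate 2 gave the 1 LXR and the 5 ChREBP targets, LD replicate 4 or CD replicate 2 the 1 SREBP-1 target, and LD replicate 1 or CD replicate 3 the 2 PPARγ targets. Divided by the length covered in each library, H3K27ac did not overlap for 8 of the 10 regulators, against 4, and for 28% of all genes. Divided by median heights, 3 Hnf4α (6.38%) and 6 C/EBPα loci (20%) passed and 45 Hnf4α loci did not overlap (53.6%), against 0, 2 and 18; over all loci these shares were 5.5%, 19.1% and 50.7%. Omitting a library, which leaves a lone sample assumed to vary like the other diet's, gave 0 to 0 C/EBPα loci that passed, 30 to 58 Hnf4α loci (39.5% to 79.2%, against 43.8% to 82.5% of all loci) and 28 to 49 C/EBPα loci (58.3% to 94.2%, against 62.8% to 88.1%) that did not overlap; fewer samples make non-overlap more common by construction. At a CHiCAGO score of at least 10, 10 interactions were listed on LD and 14 on CD. Other causes were not tested.

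With a block for the replicate number, 2 regulators were higher and 3 lower as before, Srebf1 stood at -0.32, the LXR targets called higher at 4, the ChREBP targets called higher at 2 and the partners called lower at 9. Deviations of mice with the same number correlated at -0.115, 0.241, 0.0493, 0.0265 and -0.0412, and 1 of 5 was closest to its own number. A pairing of the mice by number was not seen, though 5 correlations cannot settle it.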

Other observations

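Genes that follow the feeding state moved in both directions, with 3 of 10 higher and 3 lower on LD (30% each, against 13.8% and 11.1% of all tested genes). Irs2, the insulin receptor substrate of liver, fell from 15.9 ± 2.29 to 6.24 ± 1.03 CPM (SD, n = 5; log2 fold change -1.35, SE 0.13, edgeR adjusted p = 1.86e-05), with G6pc (-1.20) and Tat (-0.88). Pdk4, the pyruvate dehydrogenase kinase, rose by 1.11 and Fgf21 by 1.36.

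Of 13 clock genes, 2 fell (15.4%, against 11.1% of all tested genes) and 0 rose (against 13.8%). Nr1d1, the repressor REV-ERBα, stood at 21.4 ± 1.76 CPM on LD and 40.3 ± 7.85 CPM on CD (-0.91, SE 0.12, edgeR adjusted p = 0.000186), and Cry2 had a log2 fold change of -0.35. Of 8 endothelial genes 1 rose (12.5%; Lyve1, 0.90), and of 8 lymphocyte genes Cd4 fell (-1.26) and Cd8a rose (2.04), both with a mean under 2 CPM on either diet.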
